A study of Mus musculus with 14 samples.

Results

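The Notch receptors, ligands and targets described here are 10 genes, chosen by gene symbol: the receptors *Notch1*, *Notch2*, *Notch3* and *Notch4*, the ligands *Dll1*, *Dll4*, *Jag1* and *Jag2*, and the target genes *Hes1* and *Hey1*. The spleen count table holds 49315 genes and the ovary table holds 18603, and all 10 members were listed in both tables and passed the filter on low values in both. RNA was measured in whole spleens of 4 wild-type (WT) and 4 *Zfp36l2* knockout (L2-cKO) mice and in ovaries of 3 WT and 3 L2-cKO mice, with 1 poly(A) library per organ. L2-cKO mice (Zfp36l2-/-;CMV-Cre) lack exon 2 of *Zfp36l2*, which had been flanked by loxP sites, and the CMV-Cre transgene that removed it is active from early embryogenesis in all tissues, germ cells included. The WT animals were littermates with intact *Zfp36l2* that also carried Tg.CMV-Cre, so the transgene is common to all groups. The deletion is therefore not restricted to any cell type, and the libraries are of whole tissue, in which more cells of a type and more RNA per cell cannot be told apart. By the labels, 2 WT spleens were from females and 2 from males, 1 L2-cKO spleen was from a female and 3 from males, and all ovaries were from females. Ages are not in the labels. The study describes its spleens as those of age-matched mouse pups in the first days after birth, and says that L2-cKO pups died early in postnatal life. L2-cKO spleen 3 and L2-cKO ovary 1 came from the same animal.

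Notch receptors are single-pass membrane proteins that are activated by ligands of the Delta-like and Jagged families on neighbouring cells. Ligand binding exposes the receptor to cleavage by an ADAM protease and then by γ-secretase, and the released intracellular domain enters the nucleus, binds RBPJ and switches on genes such as *Hes1* and *Hey1*, which encode transcriptional repressors. In the spleen, *Notch2* and stromal *Dll1* are known for the formation of marginal zone B cells. In the ovary, *Jag1* in germ cells and *Notch2* in granulosa cells are known for their part in follicle formation. ZFP36L2 is a zinc-finger protein that binds AU-rich elements in 3′UTRs and promotes decay of the mRNA, and *Notch1* mRNA is a known target of ZFP36L1 and ZFP36L2. The question put to these genes was how their mRNA levels compared between L2-cKO and WT in each tissue.

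The 7-mer UAUUUAU, the core of the element bound by ZFP36 family proteins, was counted on the sense strand of the 3′UTRs, taking for each member the longest one in GENCODE mouse release 21 (genome build GRCm38), with overlapping matches counted separately. It occurred 12 times in 5 of the 10 members. *Jag1* had 5 and *Notch1* had 4, and *Notch3*, *Dll1* and *Dll4* had 1 each. No match was found in the longest 3′UTR of *Notch2*, *Notch4*, *Jag2*, *Hes1* or *Hey1*. Another annotated isoform of *Notch4* holds 1, which makes 6 members with a match in any isoform. The sites of *Jag1* are shown because *Jag1* had the largest difference between genotypes in the ovary, those of *Notch1* because it is the known target, and that of *Notch3* because it was the member that passed the test in both tissues. Each is printed 5′ to 3′ as RNA, with the 7-mer in capitals and 8 nt on either side.
Jag1 site 1: cauaguuuUAUUUAUauuuauug
Jag1 site 2: uuuauuuaUAUUUAUugacucuu
Jag1 site 3: gacuuuauUAUUUAUuuuuuuuu
Jag1 site 4: uuccuuuuUAUUUAUauguaugu
Jag1 site 5: aaaaguaaUAUUUAUuaaauuuu
Notch1 site 1: uuuuuuagUAUUUAUuuauguac
Notch1 site 2: uuaguauuUAUUUAUguacuuuu
Notch1 site 3: ugccuuuuUAUUUAUauguauug
Notch1 site 4: augcuguuUAUUUAUugauugcu
Notch3 site 1: ucuuccuuUAUUUAUaaugggua
All 10 windows lie in 3′UTR exon sequence on the minus strand. Those of *Jag1* are at chr2:137082667-137082689, chr2:137082661-137082683, chr2:137082543-137082565, chr2:137082336-137082358 and chr2:137081471-137081493. Those of *Notch1* are at chr2:26459363-26459385, chr2:26459359-26459381, chr2:26459319-26459341 and chr2:26459165-26459187, and that of *Notch3* is at chr17:32121642-32121664. The first pair of sites in *Notch1* share 3 nt of their 7-mers and the first pair in *Jag1* share 1 nt, so neither pair is a set of separate elements.

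The 3′UTR of *Jag1* is 1568 nt long and its 7-mers start 343, 349, 467, 674 and 1539 nt after the stop codon. That of *Notch1* is 1628 nt long, with 7-mers that start at 154, 158, 198 and 352 nt. The shorter AUUUA was found 10 times in *Jag1*, 4 times each in *Notch1* and *Notch2*, 3 times each in *Dll1* and *Dll4*, 2 times in *Notch3*, 1 time each in *Jag2* and *Hey1*, and not in *Hes1* or in the longest 3′UTR of *Notch4*. Every 7-mer also contains an AUUUA. Of the genes tested in the ovary that have an annotated 3′UTR, 29.22% held at least 1 UAUUUAU and 99 (0.6407%) held 5 or more. Among ovary-tested genes with a 3′UTR of like length to that of *Jag1* (a ratio of lengths, shorter to longer, of at least 0.8), 6 of 2754 (0.2179%) held at least 5. Among spleen-tested genes with a 3′UTR of like length to that of *Notch1*, 21 of 2542 (0.8261%) held at least 4. These are matches of letters, given as a description.

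**Figure D1:**
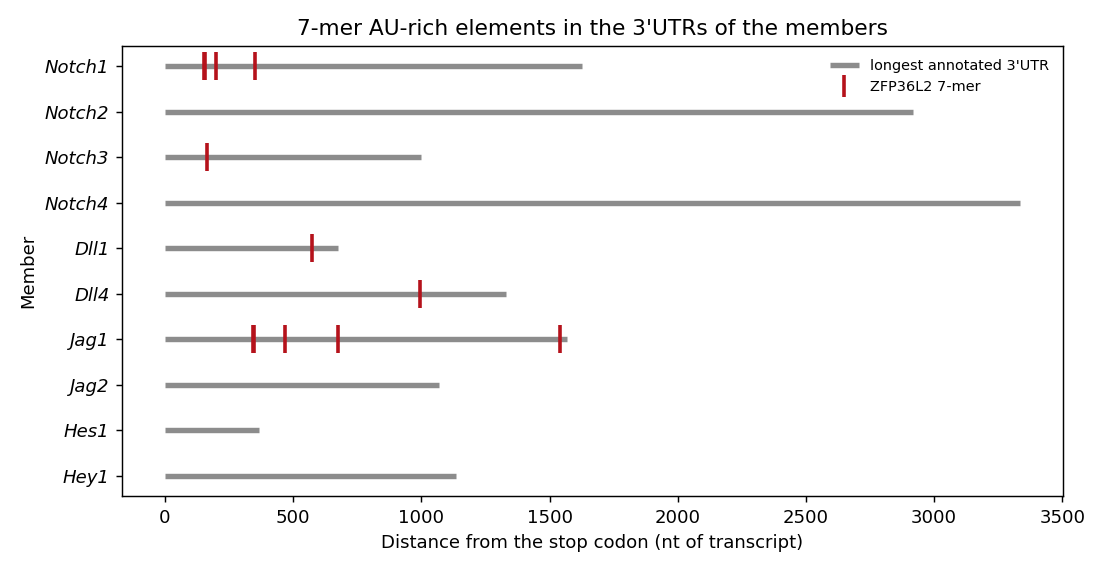
Position of the 7-mer UAUUUAU in the longest 3′UTR that GENCODE gives for each member. The x axis is the distance from the stop codon in nt, grey bars are the 3′UTRs and red ticks are matches; *Jag1* has 5 and *Notch1* has 4, of which the first pair in each overlap, and 5 members have none.

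The deleted gene was measured first. *Zfp36l2* had normalized counts of 7394, 4773, 6429 and 4362 in the WT spleens and 278, 326, 349 and 405 in the L2-cKO spleens. In the ovary the values were 4868, 4906 and 4745 in WT and 758, 1011 and 1009 in L2-cKO. The groups did not overlap in either tissue, and reads counted on the gene were present in every L2-cKO library. The counts are per gene and do not show from which exon these reads came. The log2 fold change was -4.08 in the spleen (standard error, SE, 0.21; edgeR adjusted p = 8.84e-06) and -2.40 in the ovary (SE 0.12, limma adjusted p = 0.000578). A normalized count is here the number of reads of a gene after scaling for library depth. Totals on genes were 39138010 to 45167464 reads per spleen library and 31052510 to 44270070 per ovary library, and the scaling was done separately for each tissue. The tissue labels were checked with marker genes: summed B cell markers were at 341 to 1730 CPM (reads of a gene scaled to a common library total) across the spleens and 2.89 to 6.72 CPM across the ovaries, and oocyte markers were at 2798 to 3413 CPM across the ovaries and 0.99 to 4.79 CPM across the spleens. In the spleen, 8 of 8 megakaryocyte markers were lower in L2-cKO (edgeR, adjusted p below 0.05), with sums of 536 to 1117 CPM in WT and 25.4 to 31.4 CPM in L2-cKO.

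In the spleen, 3 members rose in L2-cKO (*Notch3*, *Notch4* and *Jag2*), with log2 fold changes of 0.86, 0.93 and 1.01, and 0 fell. A gene was taken to pass at a Benjamini-Hochberg adjusted p below 0.05 in edgeR's quasi-likelihood test over the 16911 genes tested. By this rule 13.4% of all genes tested passed, 6.89% as higher and 6.51% as lower in L2-cKO. At an unadjusted p below 0.05, 5 members were higher and 0 were lower, as against 14.4% and 14.6% of all genes. The DESeq2 Wald test passed 4 members as higher and 0 as lower, as against 9.96% and 9.5% of all genes. With edgeR, 1 member passed when WT spleen 2, WT spleen 4 or L2-cKO spleen 1 was left out. In these fits 7.32%, 6.58% and 7.08% of all genes passed, counting both directions. The median log2 fold change was 0.54 over the 10 members and -0.02 over all genes tested, and 8 of the 10 estimates were above 0. For 4 members (*Notch3*, *Notch4*, *Jag2* and *Hey1*) every L2-cKO spleen was above every WT spleen, as against 9.61% of all genes tested, and 20.4% did not overlap in one direction or the other. The exact permutation p for such a gene is 0.0286, the smallest that 4 against 4 animals allow.

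**Figure D2:**
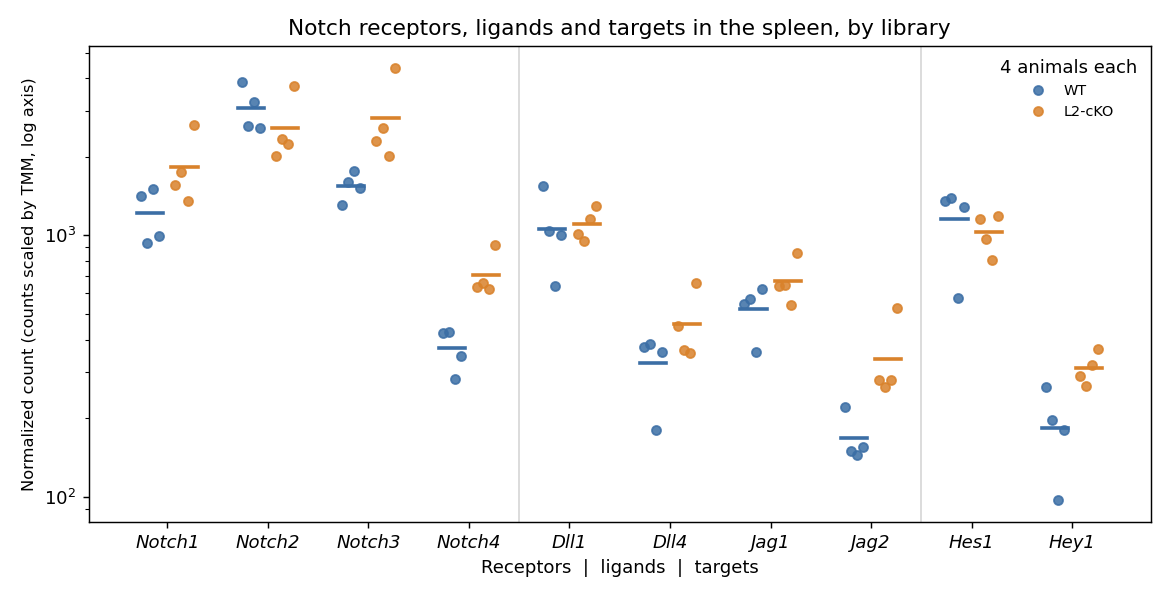
Normalized count of each member in the 8 spleens, on a log axis, with 1 point per animal and a horizontal bar at each group mean. The L2-cKO points of *Notch3*, *Notch4*, *Jag2* and *Hey1* lie above all 4 WT points, and L2-cKO spleen 4 is the highest point of its group for each member.

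Among the receptors in the spleen, *Notch3* and *Notch4* rose in L2-cKO, and *Notch1* and *Notch2* did not pass. *Notch3* (ENSMUSG00000038146, chr17:32120820-32166852, minus strand), a receptor known from mural cells of blood vessels, had normalized counts of 1309, 1607, 1756 and 1522 in the WT spleens. In the L2-cKO spleens it had 2301, 2569.8, 2006 and 4384. The groups did not overlap, and L2-cKO spleen 4 was well above the other 3 of its group. The means were 1549 ± 187 (SD, n = 4) and 2815 ± 1071 (SD, n = 4), with a log2 fold change of 0.86 (SE 0.23, edgeR adjusted p = 0.0348). Without L2-cKO spleen 4 the log2 fold change was 0.57 (adjusted p = 0.0183), and without WT spleen 4 the adjusted p was 0.0951.

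*Notch4* (ENSMUSG00000015468, chr17:34564268-34588503, plus strand), a receptor known from endothelial cells, had normalized counts of 424, 428, 283 and 345 in the WT spleens and 633, 658, 624 and 916 in the L2-cKO spleens. The groups were separated, and again L2-cKO spleen 4 stood above the others. The means were 370.1 ± 69.6 (SD, n = 4) and 707 ± 140 (SD, n = 4), with a log2 fold change of 0.93 (SE 0.18, edgeR adjusted p = 0.0102). It was the one member that passed in the spleen under each of the 16 alternative settings, with log2 fold changes from 0.76 to 1.01 and a highest adjusted p of 0.0403.

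*Notch1* (ENSMUSG00000026923, chr2:26457903-26516663, minus strand), the receptor that directs T cell commitment, had normalized counts of 1419, 938, 1505 and 991 in the WT spleens and 1565, 1752, 1350.3 and 2654 in the L2-cKO spleens. L2-cKO spleen 3 fell within the WT range, so the groups overlapped, while the other 3 L2-cKO spleens were above it. The means were 1213 ± 290 (SD, n = 4) and 1830 ± 573 (SD, n = 4). The log2 fold change was 0.59 (SE 0.23) and missed the threshold (edgeR adjusted p = 0.122). In the males alone, 2 WT and 3 L2-cKO, it was 1.05 with an adjusted p of 0.0318.

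*Notch2* (ENSMUSG00000027878, chr3:98013527-98150361, plus strand), the receptor needed by marginal zone B cells, had normalized counts of 3857, 2613, 3228 and 2569 in the WT spleens and 2014, 2327, 2237 and 3733 in the L2-cKO spleens. L2-cKO spleens 1 to 3 were below all WT spleens and L2-cKO spleen 4 was near the highest of them. The log2 fold change of -0.25 (SE 0.21, edgeR adjusted p = 0.465) missed the threshold.

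Of the ligands, *Jag2* rose in the L2-cKO spleen and the other 3 did not pass. *Jag2* (ENSMUSG00000002799, chr12:112907819-112929776, minus strand), a Jagged-family ligand, had normalized counts of 221, 151, 144 and 156 in the WT spleens and 281, 264, 279 and 527 in the L2-cKO spleens. The groups did not overlap, although WT spleen 1 came close to the lower L2-cKO spleens, and L2-cKO spleen 4 was far above the rest. The means were 167.7 ± 35.6 (SD, n = 4) and 338 ± 126 (SD, n = 4), with a log2 fold change of 1.01 (SE 0.26, edgeR adjusted p = 0.0311). Without L2-cKO spleen 4 it was 0.71 (adjusted p = 0.0281), and leaving out WT spleen 2, 3 or 4 or L2-cKO spleen 1 raised the adjusted p to between 0.0557 and 0.0929.

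*Jag1* (ENSMUSG00000027276, chr2:137081456-137116644, minus strand), the other Jagged ligand and the member with the most 7-mers, had normalized counts of 545, 571, 358 and 625 in the WT spleens and 639, 644, 542 and 857 in the L2-cKO spleens. The groups overlapped, with WT spleen 3 the lowest of all 8. The log2 fold change was 0.35 (SE 0.20, edgeR adjusted p = 0.271). *Dll4* (ENSMUSG00000027314, chr2:119325784-119335962, plus strand), a Delta-like ligand of endothelium and thymic epithelium, ranged from 181 to 385 in WT and from 355 to 658 in L2-cKO spleens, with a log2 fold change of 0.49 (SE 0.28, edgeR adjusted p = 0.269). *Dll1* (ENSMUSG00000014773, chr17:15367354-15376872, minus strand), the ligand of the marginal zone niche, ranged from 638 to 1543 in WT and from 948 to 1300.3 in L2-cKO spleens, with a log2 fold change of 0.06 (SE 0.23, edgeR adjusted p = 0.886).

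The target genes did not pass in the spleen. *Hey1* (ENSMUSG00000040289, chr3:8663359-8667256, minus strand), a repressor induced by Notch in endothelium, had normalized counts of 262, 197, 97.4 and 179.9 in the WT spleens and 289, 266, 318 and 368 in the L2-cKO spleens. Every L2-cKO spleen was above every WT spleen, but the gap between the nearest pair was small beside the spread within WT. The log2 fold change was 0.75 (SE 0.27, edgeR adjusted p = 0.0937), and the DESeq2 Wald test gave an adjusted p of 0.0374. *Hes1* (ENSMUSG00000022528, chr16:30064384-30067796, plus strand), the best known direct target of the pathway, had normalized counts of 1358, 1387, 577 and 1289 in the WT spleens and 1159.8, 966, 804 and 1182 in the L2-cKO spleens. WT spleen 3 was far below the other 3 of its group and the groups overlapped, with a log2 fold change of -0.17 (SE 0.26, edgeR adjusted p = 0.711).

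Marker genes of the vessel wall, where several members are known to be expressed, both among those that passed and those that did not, were read beside these values. The summed level of 11 endothelial markers was 510.2 to 708 CPM in the WT spleens and 708 to 1035 CPM in the L2-cKO spleens. L2-cKO spleen 4 was the highest and WT spleen 3 the lowest of the 8. Of the 11 markers, *Cdh5* alone passed as higher, and their median log2 fold change was 0.27. The 8 mural and smooth muscle markers summed to 328 to 477 CPM in WT and 558 to 599 CPM in L2-cKO spleens, and *Pdgfrb*, *Rgs5* and *Mcam* passed as higher, with a median log2 fold change of 0.36 over the list. For fibroblast markers the sums were 816 to 952 CPM in WT and 983 to 1226 CPM in L2-cKO, with 2 of 8 (*Lum* and *Pdgfra*) higher, and for macrophage markers 798 to 1402 and 1336 to 2402 CPM, with 2 of 8 (*Mertk* and *Adgre1*) higher. The part of these cell types in the Notch gene values was not tested. With L2-cKO spleen 4 left out, 3 members passed as higher, with smaller log2 fold changes for *Notch3* (0.57), *Notch4* (0.79) and *Jag2* (0.71). With WT spleen 3 left out, 2 members did. Over all genes tested, these fits passed 1514 and 1527 as higher, in place of 1166 with all 8 spleens.

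B cell markers summed to 341 to 1730 CPM in the WT and 361 to 958 CPM in the L2-cKO spleens, and none of the 8 passed. T cell markers summed to 85.8 to 227 and 105.5 to 228 CPM, again with none of 8 passing. Of the 6 markers of marginal zone B cells and ESAM-positive dendritic cells, the cells that need *Notch2*, *Cd9* alone passed as lower. Their sums were 394 to 543 CPM in WT and 325 to 518 CPM in L2-cKO, with a median log2 fold change of -0.30. *Cr2*, of the same list, had a log2 fold change of -0.67 (SE 0.50, edgeR adjusted p = 0.408). All 8 megakaryocyte markers were also lower in the L2-cKO spleens, and the part of any cell type in the *Cd9* values was not tested.

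In the ovary, 2 members rose in L2-cKO, *Jag1* and *Notch3*, and 0 fell. *Jag1* was 2.86-fold higher in L2-cKO and ranked 4 by p among the 18504 genes tested there. By limma on log2(normalized count + 1) with Benjamini-Hochberg adjustment, 1.58% of all genes tested passed, 1.23% as higher and 0.351% as lower. At an unadjusted p below 0.05, 5 members were higher and 0 were lower, as against 9.88% and 6.95% of all genes. On whole reads recovered from the normalized values, edgeR passed 2 members as higher (1.24% of all genes) and DESeq2 passed 4 (4.38%), and each passed 0 members as lower (0.373% and 1.65%). All 10 estimates were above 0, with a median log2 fold change of 0.43, as against -0.004 over all genes tested. For 5 members (*Notch1*, *Notch3*, *Dll4*, *Jag1* and *Jag2*) every L2-cKO ovary was above every WT ovary, as against 13.2% of all genes tested, and 25.2% did not overlap in one direction or the other. With 3 animals against 3 the exact permutation test cannot go below p = 0.1.

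**Figure D3:**
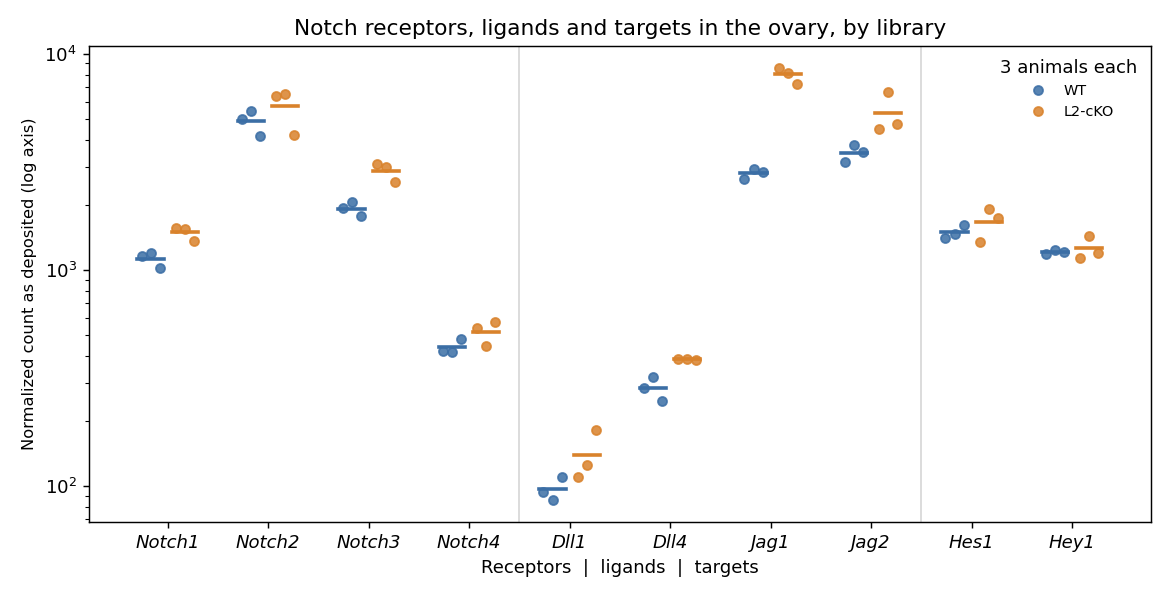
Normalized count of each member in the 6 ovaries, on a log axis, with 1 point per animal and a horizontal bar at each group mean. The 3 L2-cKO points of *Jag1*, from 7247 to 8618, lie far above the WT points, from 2623 to 2926, and *Notch1*, *Notch3*, *Dll4* and *Jag2* are separated by smaller gaps.

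*Jag1*, whose 3′UTR holds the 5 sites printed above, had normalized counts of 2623, 2926 and 2829 in the WT ovaries and 8618, 8174 and 7247 in the L2-cKO ovaries. The lowest L2-cKO ovary was more than 2 times the highest WT ovary, and the spread within each group was small beside this gap. The means were 2793 ± 155 (SD, n = 3) and 8013 ± 700 (SD, n = 3), with a log2 fold change of 1.52 (SE 0.08, limma adjusted p = 0.000642). *Jag1* passed in the ovary under each of the 13 alternative settings, with log2 fold changes from 1.46 to 1.59 and a highest adjusted p of 0.00864. It was the 1 member that passed in the ovary with a log2 fold change above 1, as 0.73% of all genes tested there did. In the spleen *Jag2* was the 1 such member, as against 2.9% of all genes.

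Of the 99 ovary-tested genes with 5 or more UAUUUAU, 5 (5.051%) rose in L2-cKO, *Jag1* among them, and 187 of the 15453 genes with an annotated 3′UTR (1.21%) did. The cut of 5 is the number of sites in *Jag1* itself, and the genes were not matched for 3′UTR length. These shares are therefore a description, and the part of the 7-mers in the *Jag1* values was not tested. With at least 1 UAUUUAU the share that rose was 1.439%. In the spleen, where *Jag1* did not pass, 9 of 91 genes with 5 or more (9.89%) and 1065 of 14227 genes with a 3′UTR (7.486%) rose. The tissues were normalized and fitted separately, and the difference in the *Jag1* effect between ovary and spleen was not tested.

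*Jag2* had normalized counts of 3153, 3757 and 3515 in the WT ovaries and 4479, 6646 and 4745 in the L2-cKO ovaries. All L2-cKO ovaries were above all WT ovaries and L2-cKO ovary 2 was the highest by a wide margin. The log2 fold change was 0.59 (SE 0.15, limma adjusted p = 0.118). *Dll4* had normalized counts of 284, 320 and 246 in WT and 387, 387 and 383 in L2-cKO ovaries. The L2-cKO values were close together and all above WT, with a log2 fold change of 0.45 (SE 0.13, limma adjusted p = 0.15). *Dll1*, the ligand with the lowest level per kilobase in the ovary, had normalized counts of 86.1 to 110.1 in WT and 110 to 182 in L2-cKO, which overlapped, and a log2 fold change of 0.49 (SE 0.23, limma adjusted p = 0.341).

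*Notch3* was the member that passed in both tissues. It had normalized counts of 1920.1, 2047 and 1769.9 in the WT ovaries and 3081, 2981 and 2559 in the L2-cKO ovaries, with no overlap between the groups. The means were 1912 ± 139 (SD, n = 3) and 2873 ± 277 (SD, n = 3), with a log2 fold change of 0.59 (SE 0.10, limma adjusted p = 0.0323). Leaving out any WT ovary or L2-cKO ovary 1 raised the adjusted p to between 0.0796 and 0.156. *Notch1* had normalized counts of 1162, 1192 and 1020.3 in the WT ovaries and 1553, 1552 and 1359.7 in the L2-cKO ovaries. These groups did not overlap either, and the log2 fold change of 0.40 (SE 0.10) missed the threshold (limma adjusted p = 0.0937).

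*Notch2*, the receptor with the highest level per kilobase in the ovary, ranged from 4164 to 5443 in WT and from 4208 to 6528 in L2-cKO, with a log2 fold change of 0.21 (SE 0.18, limma adjusted p = 0.602). *Notch4* ranged from 418 to 479.9 in WT and from 444 to 572 in L2-cKO, with a log2 fold change of 0.23 (SE 0.13, limma adjusted p = 0.419). Neither was separated between the genotypes. Of the targets, *Hes1* had a log2 fold change of 0.14 (SE 0.13, limma adjusted p = 0.63) and *Hey1* one of 0.05 (SE 0.10, limma adjusted p = 0.83), with normalized counts of 1407 to 1611 and 1177 to 1236 in WT and 1349 to 1908 and 1138 to 1438 in L2-cKO.

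In the ovary the 11 endothelial markers summed to 543 to 574 CPM in WT and 647 to 746 CPM in L2-cKO, with *Cdh5* higher and a median log2 fold change of 0.32. The 8 mural markers summed to 745 to 1253 and 676 to 1566 CPM, with *Pdgfrb* higher and a median of -0.01. The granulosa cell markers summed to 2228 to 2758 CPM in WT and 1315 to 2333 CPM in L2-cKO, and the oocyte markers to 3299 to 3358 and 2798 to 3413 CPM, and none of the 8 markers in either list passed. Their median log2 fold changes were -0.42 and -0.09. Macrophage markers summed to 69.6 to 85.4 CPM in WT and 94.9 to 124.5 CPM in L2-cKO, with 0 of 8 passing in limma and a median of 0.59. The genes listed as markers of marginal zone B cells and ESAM-positive dendritic cells summed to 139.6 to 146 and 169.7 to 218 CPM, with a median of 0.42. Of this list, *Clec4a4* was not listed or at 0 and *Cr2* had 3 to 18 reads per ovary library. B cell markers summed to 2.89 to 3.73 CPM in WT and 3.61 to 6.72 CPM in L2-cKO ovaries. The list sum is therefore no measure of such cells in the ovary. T cell markers were scarce, at 3.93 to 4.44 CPM in WT and 8.08 to 11 CPM in L2-cKO. Of the 8, *Cd3e*, *Cd3d*, *Cd8a*, *Cd5* and *Cd28* were not listed or at 0. Of the 3 tested *Cd4* passed as higher, with a median of 0.73. The part of these cell types in the values of *Jag1*, *Notch3* and the other members was not tested.

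**Figure D4:**
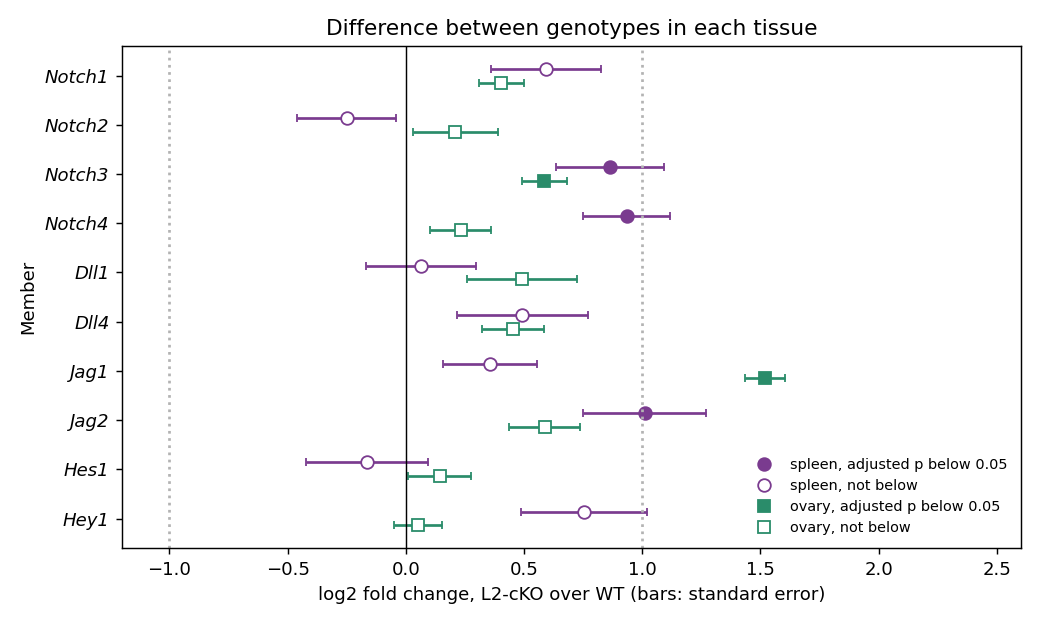
Log2 fold change of L2-cKO over WT for each member in spleen (circles) and ovary (squares), with bars of 1 SE; filled symbols have an adjusted p below 0.05 and dotted lines mark an absolute log2 fold change of 1. *Jag1* in the ovary, at 1.52, is the largest, and *Notch3* is filled in both tissues.

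Levels of different members were compared per kilobase of merged exon, as CPM per kb in WT. In the spleen *Hes1* was the highest at 13.1 ± 4.38 (SD, n = 4), followed by *Notch2* at 6.58, *Dll1* at 5.79 and *Notch3* at 4.43 CPM per kb. The ranges of neighbours in this order overlapped. Below *Notch3* came a step with no overlap to *Jag1* at 2.08, *Notch1* at 1.97 and *Dll4* at 1.95 CPM per kb, whose ranges overlapped. *Hey1* followed at 1.31 and *Notch4* at 1.06, and *Jag2* was the lowest at 0.557 CPM per kb, below all *Notch4* values.

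In the WT ovary *Hes1* was again the highest, at 19.7 ± 1.39 CPM per kb (SD, n = 3), above all values of the next gene. *Jag2* at 13.4, *Jag1* at 12.9 and *Notch2* at 12.1 CPM per kb overlapped. *Hey1* at 9.93 and *Notch3* at 6.36 CPM per kb were each separated from their neighbours. *Notch1* at 2.13 and *Dll4* at 1.98 overlapped, and *Notch4* at 1.46 and *Dll1* at 0.616 CPM per kb were each lower without overlap. In L2-cKO ovaries *Jag1* was at 36.9 CPM per kb, the highest mean of all members. Set side by side, *Jag2* was the lowest of the 10 in the WT spleen and next to the highest in the WT ovary, and *Dll1* was the lowest in the WT ovary and behind only *Hes1* and *Notch2* in the WT spleen.

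**Figure D5:**
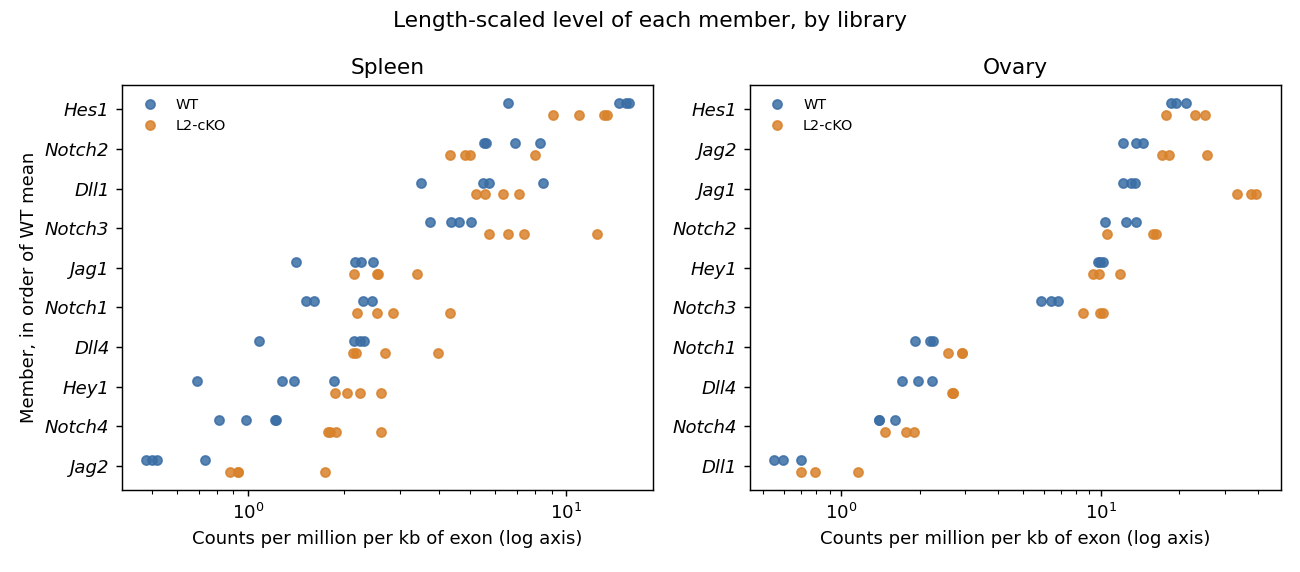
Level of each member in CPM per kb of merged exon, on a log axis, in spleen (left) and ovary (right), with 1 point per animal and the members in the order of the WT mean. *Hes1* heads both orders in WT, and the L2-cKO ovaries have *Jag1* as the highest member.

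The wider pathway was read from a list of 61 further genes, of which 58 were tested in the spleen. There 3 rose and 4 fell in L2-cKO (edgeR, adjusted p below 0.05), shares near the 6.89% and 6.51% of all genes tested, so the counts are no result about the list. Its median log2 fold change was 0.03, and the genes that passed are given for their own values. *Dtx4*, a Deltex-family ubiquitin ligase, had normalized counts of 484 to 877 in WT and 926 to 1366 in L2-cKO spleens, with a log2 fold change of 0.90 (SE 0.20, adjusted p = 0.0159). *Tle1*, a Groucho-family corepressor that works with HES and HEY proteins, rose by 0.56 (SE 0.14, adjusted p = 0.0263). *Hey2*, a target gene related to *Hey1*, rose by 0.64 (SE 0.18, adjusted p = 0.048), from 121 to 186 in WT to 216 to 247 in L2-cKO spleens, and it no longer passed when any 1 of the 8 libraries was left out. The groups of all 3 genes did not overlap, and 9.61% of all genes tested were higher without overlap. These 3 were named because they passed, so the separation adds no support.

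*Neurl1a*, whose protein ubiquitinates Notch ligands, had normalized counts of 159 to 228 in WT and 60.8 to 113 in L2-cKO spleens, with a log2 fold change of -1.30 (SE 0.24, edgeR adjusted p = 0.00717). *Psen2*, a catalytic subunit of γ-secretase, had a log2 fold change of -0.48 (SE 0.12, edgeR adjusted p = 0.0301), and *Cir1*, a corepressor of RBPJ, one of -0.66 (SE 0.17, edgeR adjusted p = 0.0308). *Dlk1*, a non-canonical ligand, had a log2 fold change of -2.21 (SE 0.54, edgeR adjusted p = 0.0252) on 21 to 315 reads per library. Its normalized counts were 51.9, 74.8, 139 and 318 in the WT spleens and 21.9 to 41.8 in the L2-cKO spleens, so WT spleen 4 stood far above the others. It no longer passed without WT spleen 4 or without L2-cKO spleen 1, 2 or 3. When 1 library was left out, 0 to 7 genes passed as higher (0 without WT spleen 2, WT spleen 4 or L2-cKO spleen 2). As lower, 1 to 6 passed (1 without WT spleen 4 or L2-cKO spleen 1 or 2). Over all genes tested, these fits passed 543 to 1527 as higher and 551 to 1535 as lower.

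In the ovary 60 of the 61 genes were tested and limma passed 0 in either direction. At an unadjusted p below 0.05, 8 were higher and 0 were lower, as against 9.88% and 6.95% of all genes. On recovered reads edgeR passed 0, and DESeq2 passed 3 as higher, *Heyl*, *Nrarp* and *Gata3*, a share near the 4.38% of all genes. *Heyl*, a Hey-family target gene, had normalized counts of 4166 to 4700.4 in WT and 5399 to 6196 in L2-cKO ovaries, with a log2 fold change of 0.36 (SE 0.08, limma adjusted p = 0.0843). *Nrarp*, a target gene whose product restrains the receptors, had 276 to 337 in WT and 432 to 611 in L2-cKO ovaries, with a log2 fold change of 0.68 (SE 0.16, limma adjusted p = 0.099). *Gata3*, another target gene, had 65.7 to 115 in WT and 156 to 246 in L2-cKO ovaries. Its log2 fold change was 1.02 (SE 0.28, limma adjusted p = 0.134). All 3 were separated between the genotypes. Of the 60 genes, 11 were separated as higher and 6 as lower, and 13.2% of all genes tested were separated as higher.

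The genes whose levels followed *Notch1* most closely over the 8 spleens, by Pearson's r of log2 CPM among the other 16910 genes tested, were *Slc39a14* (0.994), *Zkscan17* (0.992), *Ssfa2* (0.987), *Colgalt1* (0.985) and *Dag1* (0.985). All 8 libraries enter each value and share their depth scaling and genotype groups, and none of the 5 passed the test between genotypes. Their values in L2-cKO and WT spleens overlapped, as those of *Notch1* did.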

How the data were processed

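Poly(A) RNA of 8 spleens and 6 ovaries was sequenced, 1 library per organ. The labels name the spleen source as spleen organoid, taken here as spleen, and 2 WT spleens carry the number 3; the male one is called WT spleen 4. The authors trimmed reads with Trimmomatic 0.36, mapped them to GRCm38 with STAR 2.5.2b and counted unique exonic reads by strand with featureCounts (Subread 1.5.2); the methods name the same technique for the ovary. The deposited spleen counts per gene were used as given. For the ovary the authors deposited normalized signal values, which are counts divided by a size factor; 100% of them are whole multiples (within 0.001 read) of what 1 read is worth in that library, which gave back the reads. The authors' tables also hold log2 fold changes and p-values of their DESeq2 comparison, which were not used.

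Spleen counts were tested with edgeR 4.0.16 (quasi-likelihood, TMM) for genes that reached 10 counts in 4 or more libraries, and SE was taken as the log2 fold change over the root of F. Ovary values were tested with limma 3.58.1 (trend) on log2(value + 1), for genes that reached a value of 10 in 3 or more libraries, so ovary fold changes are on that scale. The Benjamini-Hochberg adjustment covered all genes tested, and no covariate was used. DESeq2 1.42.0 in R 4.3.3 was an alternative; others were scaling, filters, pseudocount, sex, replicate block and leaving out each library. Summaries used Python 3.11.15, numpy 2.4.6, pandas 2.3.3, scipy 1.17.1 and matplotlib 3.10.9. The fits were tested on simulated data in which 200 genes were given an absolute log2 fold change of 2. The spleen fit recovered 197 (98.5%) with 10 false calls among 16688 genes, and the ovary fit 197 (98.5%) with 8 among 18322. No smaller change was simulated, and every member had an estimate below 2. The recovered share therefore does not show how often differences of the size seen in the members would pass. Libraries of a group differed by more than sampling noise. Depth was 31052510 to 45167464 reads per library, but counting error depends on the reads of each gene. It is not small for the members with the fewest reads, such as *Dll1* in the ovary (77 to 160) and *Hey1* in the spleen (98 to 432). The number of animals also limits precision, and the 2 sources of spread were not separated.

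The members, the wider pathway list and the marker lists were chosen with earlier results of these data known. Named genes are the members, *Zfp36l2*, wider-pathway genes that passed (at most 6 per direction) and the 5 genes most correlated with *Notch1*. Marker genes and the ovary genes *Heyl*, *Nrarp* and *Gata3* were named after their values were seen. 3′UTRs are the exonic bases after the stop codon in GENCODE mouse release 21. Promoter and protein sequences were not used here.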

Additional observations from a re-analysis of the deposited data

Results flagged for a closer look

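In the spleen, 5 values stood apart from the other 3 animals of their group in a test of the gap to the nearest value over the range. Groups of 3 ovaries were not tested. *Notch4* in L2-cKO spleen 4 had a normalized count of 916, with the others at 624 to 658, and *Jag2* in the same spleen had 527, with the others at 264 to 281. *Jag2* in WT spleen 1 was at 221, above the 144 to 156 of the other WT spleens. In WT spleen 3, *Dll4* was at 181, with the others at 359 to 385, and *Hes1* was at 577, with the others at 1289 to 1387. Of the 22 groups tested, chance alone marks about 1 in 20. Summed endothelial markers were highest in L2-cKO spleen 4 (1035 CPM) and lowest in WT spleen 3 (510.2 CPM), and their part in these values was not tested.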

How the results depend on the processing

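*Notch4* in the spleen, *Jag1* in the ovary and *Zfp36l2* in both kept their direction and stayed past the threshold under every alternative run (16 for the spleen, 13 for the ovary). The 3 spleen members became 1 with sex as a covariate and 1 to 3 when 1 library was left out. *Notch3* missed the threshold in 8 and *Jag2* in 7 of the 16 spleen alternatives, and *Notch3* in 4 of the 13 ovary alternatives. *Notch1* passed in males alone and in no other spleen alternative. The 2 ovary members became 4 with DESeq2 on recovered reads, with *Notch1* and *Jag2* added, and 1 to 2 when 1 library was left out. Of the wider pathway in the spleen, the 3 genes that rose became 7 with DESeq2, 5 with sex as a covariate and 8 in males alone. Of all 16911 genes tested there, 1166 rose in the main fit, and these settings gave 1685, 1109 and 1403. When 1 library was left out, 0 to 7 pathway genes rose, as against 543 to 1527 of all genes. The 4 that fell became 1 to 6, as against 551 to 1535 of all genes. In the ovary 0 became 3 with DESeq2, which passed 811 of all genes as higher in place of 227. Estimates that turned sign were those of *Notch2* in males alone (0.055), of *Dll1* in the spleen, from -0.114 without WT spleen 3 (-0.023 without L2-cKO spleen 4) to 0.306, and of *Hey1* in the ovary, from -0.048 without L2-cKO ovary 2 to 0.120; none of these passed. The cause of these shifts was not tested.

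With the replicate number as a block, 1 spleen member passed (*Notch4*) and 4 ovary members did. The wider pathway gave 0 higher and 2 lower in the spleen and 2 higher in the ovary. Over all genes tested, this block passed 669 as higher and 578 as lower in the spleen. In the ovary it passed 411 as higher and 128 as lower. With spleen numbers exactly as in the labels, number 4 belonged to L2-cKO spleen 4 alone, which then did not bear on genotype estimates. In this fit the pathway gave 5 higher and 8 lower, as against 1787 and 1700 of all genes. *Dll1* was then at -0.014. Same-numbered libraries deviated together with correlations of -0.31 to 0.183 in the spleen and 0.0723 to 0.382 in the ovary, not every library correlated best with its own number, and the labels do not say that a number marks a pair, so it was not taken as pairing. The study speaks of age-matched pairs of spleens, and the labels do not say which animals these were. Over all genes tested, DESeq2 passed 1116 in the ovary in place of 292, and leaving out 1 library gave 1113 to 3049 in the spleen in place of 2267 and 34 to 424 in the ovary. Few reads (21 to 315 per spleen) and a wide spread within WT limit *Dlk1*. With 3 or 4 animals a group, a difference that missed the threshold is not shown to be absent.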
